A study of Mus musculus with 12 samples.

Results

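Neutrophils sorted from mammary tumors of PyMT mice (tumor-associated neutrophils, TANs) were compared by RNA-seq with neutrophils sorted from the bone marrow (BM) of WT mice. Groups were taken from the genotype and tissue given for each sample, which placed 4 libraries in each, 8 of the 12 libraries in the series. In PyMT mice a mammary tumor virus promoter drives a polyoma virus oncogene, middle T, in the mammary epithelium, where tumors form. Mice of both groups were of the FVB strain, 10 weeks old, kept under SOPF conditions and intact for Cxcr2. The WT mice carried no tumor. Marrow was spun out of leg bones, whereas tumors were minced and digested with an enzyme kit. Both cell suspensions then had red cells lysed, CD11b+ cells enriched on beads, and CD45+ CD11b+ Ly6G+ F4/80- cells sorted. With no BM of PyMT mice and no blood neutrophils compared here, tissue of origin, tumor bearing and digestion cannot be told apart in any difference described. The labels number the replicates without naming the animals behind them, although the study describes its tumor groups as made of separate animals, and p-values measure the spread between these libraries.

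Neutrophils are made in the marrow, where maturing precursors fill their granules in a set order. Azurophil granules with myeloperoxidase and serine proteases are loaded at the promyelocyte stage, specific granules with lactoferrin and cathelicidin at the myelocyte stage, and gelatinase granules and secretory vesicles later still. The mRNAs of granule proteins are made early and decline as the cell matures, leaves for the blood and enters tissue. In tissue, neutrophils sense bacteria, damaged cells and cytokines through surface receptors and can turn on cytokine, chemokine and immunoregulatory genes, many of them through the transcription factor NF-kappaB.

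Each library held 25032704 to 44310707 reads counted on genes, and levels are given as CPM, each gene's share of the library's gene counts, adjusted by TMM factors, which were 1.11 to 1.21 in TANs and 0.779 to 0.919 in BM neutrophils. Values are listed in the order of replicates 1 to 4, log2 fold changes are TAN over BM with their SE, and adjusted p-values are from edgeR's quasi-likelihood test over all genes tested. A gene was counted as higher or lower with an adjusted p under 0.05 and a fold of at least 1.5. Of 17153 genes tested, 5160 were higher in TANs (30.1%) and 3988 were lower (23.2%), and the median log2 fold change over all of them was 0.09. Among the higher genes, 2517 (48.8%) had at least 1 CPM in every BM library and 162 (3.14%) had no count in any of them. Of the lower genes, 3125 (78.4%) still had at least 1 CPM in every TAN library and 40 had no count in any. When library totals were used without TMM factors, the median moved up by 0.44 and the higher genes went from 56.4% to 72.8% of all calls, so directions below are relative to the TMM scale. Some of the genes named below share exon sequence with another annotated gene, and their counts are uncertain because the strand setting of the counting was not given in the sources used here. These are, with a gene on the opposite strand, Acsl1, Adpgk, Bad, Bid, Cd274, Cdkn1a, Cebpb, Cebpd, Ctsb, Cxcl16, Cyp4f18, Dusp1, Gapdh, Gbp2, Gpi1, Hk1, Hvcn1, Icam1, Il1a, Il1b, Junb, Krt8, Mmp12, Mpo, Myb, Ncf1, Nfkb2, Pfkp, Ppp1r15a, Psmb9, Slc2a1, Thbs1, Tpi1 and mt-Co1, with a gene on the same strand Cd74, Fpr2, Itgam, Olfm4, Spp1 and Top2a, and with both Ddit3, Hif1a and Satb1.

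Transcripts taken here as markers of other tumor cells were present in the TAN libraries at levels that differed between the replicates. They are given first because several programs moved with them. Whether other cells or the TANs themselves made these transcripts was not tested. The 18 macrophage and monocyte markers summed to 2360.4, 5411, 5884 and 4103 CPM in the TAN libraries and to 243 to 344 CPM in the BM libraries. Of the 16 that were tested 15 were higher, with a median log2 fold change of 6.16, and Trem2 had no count in any library. Replicate 1 held the lowest level of 14 of these 16 genes. The apolipoprotein Apoe had 864, 2695, 2626 and 1793 CPM in the TAN libraries and 25.8, 18.9, 12.9 and 17.2 CPM in the BM libraries, and the complement subunit C1qa had 153, 358, 417 and 296 CPM in the TAN libraries and 1.65, 1.97, 0.581 and 0.648 CPM in the BM libraries. Adgre1, which encodes the F4/80 antigen that the sort gated against, had 68.2, 154, 196 and 139.9 CPM in the TAN libraries and 11.7, 9.85, 9.96 and 8.34 CPM in the BM libraries (log2 fold change 3.81 ± 0.29, adjusted p = 1.1e-06). Thus the F4/80 transcript was higher in each TAN library than in any BM library.

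Genes of antigen presentation by MHC class II were likewise gained, with a summed level above every BM library in each TAN library and lowest in replicates 1 and 4. The 12 dendritic cell and MHC class II markers summed to 1844, 3859.8, 3722 and 1853 CPM in TANs and 18.4 to 27.8 CPM in BM neutrophils, with 9 of 12 higher and none lower. The invariant chain Cd74 had 987, 2054, 1922 and 858 CPM in the TAN libraries and 11.7, 11.05, 10.4 and 6.58 CPM in the BM libraries. Mammary epithelial markers were almost absent from BM libraries. Their 19 genes summed to 65.4, 99.6, 448 and 670.3 CPM in TANs, highest in replicates 3 and 4, and to 11.5 to 13.2 CPM in BM neutrophils. Keratin 8 (Krt8) had 8.21, 12.8, 58.01 and 67.3 CPM in TANs and no count in BM neutrophils. Its TAN mean was at least 409-fold above a floor of 3 counts per library. The milk protein gene Csn3 had 16, 10.9, 87.9 and 197 CPM, with a mean at least 870.4-fold above that floor. Of the 16 epithelial genes tested 15 were higher, and 3 were not tested. Of the 19, 11 had no count in any BM library. The filter on low counts could keep those only through the TAN libraries, so higher was the only call open to them.

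Markers of each of the other cells summed to at most 237.4 CPM in any library. Fibroblast markers summed to 9.15 to 39.7 CPM in TANs and 1.21 to 3.13 CPM in BM neutrophils, with 5 of 6 tested higher (median log2 fold change 3.41), or 3 of 6 without TAN replicates 3 and 4. The other 7 of the 13 fibroblast genes were not tested, and 2 of the 13 had no count in any BM library. Endothelial markers summed to 9.94 to 37.3 and 6.69 to 13.5 CPM. Erythroid markers reached 162 CPM in TAN replicate 3 and lay between 6.05 and 9.97 CPM in the other TAN libraries, against 6.84 to 22.7 CPM in BM neutrophils. B cell markers summed to 21.2 to 84.1 CPM in TANs and 56.3 to 105 CPM in BM neutrophils. In the T and NK cell list, Cd3d had 9.46 to 17.9 CPM in TANs and 199 to 232 CPM in BM neutrophils while Cd3e stayed at or below 2.72 CPM in every library, so the list's higher sum in BM neutrophils was nearly all Cd3d. Stem and progenitor markers summed to 41.9 to 110 CPM in TANs and 31.2 to 43.8 CPM in BM neutrophils, and 3 of 4 tested were higher. Adipocyte markers summed to 30.4 to 62.8 CPM in TANs and 64.9 to 81.3 CPM in BM neutrophils. Of the megakaryocyte genes tested 1 of 4 was higher and 1 lower, shares near the 30.1% and 23.2% of all genes. Of the adipocyte (3) and mast cell, basophil and eosinophil (2) genes tested 1 each was lower.

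**Figure D1:**
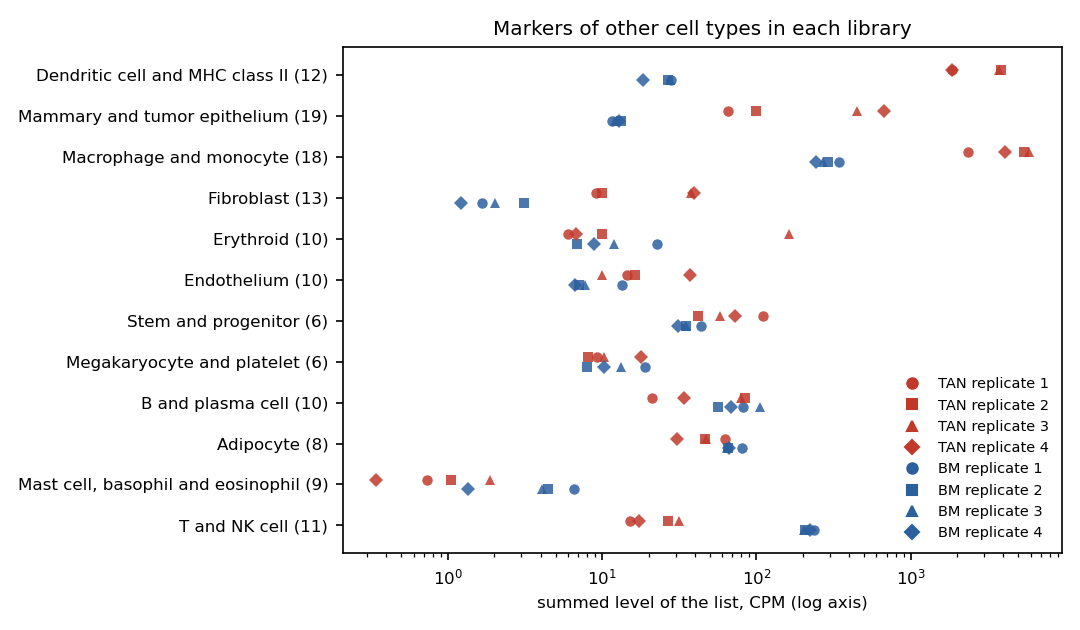
Summed CPM of the marker genes of each other cell type (log axis), with 1 point per library, TANs and BM neutrophils in separate colors. The macrophage and MHC class II sums of all 4 TAN libraries lie above those of all 4 BM libraries, and the epithelial sum runs from 65.4 to 670.3 CPM among the TAN libraries.

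Beyond the marker lists, replicate 1 was also the lowest TAN library for many of the genes called higher, to a degree that varied among the lists. Over all genes tested it held the lowest TAN level of 24.1%, where replicate 3 had the largest share (32.7%). Among the genes called higher, replicate 1 held the lowest level of 46.7%. Lysosomal genes followed that pattern in 21 of 24 cases, ribosomal protein genes in 28 of 36 and cell cycle genes in 16 of 19, as did heat shock genes in 8 of 12. Chemokines, with 7 of 16, were close to the share of all higher genes. It was the lowest library for 3 of 16 NF-kappaB genes, 4 of 16 cytokine genes, 4 of 17 immediate early genes and 5 of 25 interferon response genes. Hypoxia and glycolysis genes had the opposite order, with 26 of 28 highest in replicate 1 and none lowest there. These shares describe the 4 TAN libraries, and the part of other cells in each program was not tested. In bulk libraries, fewer cells of a type and less RNA per cell cannot be told apart.

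**Figure D2:**
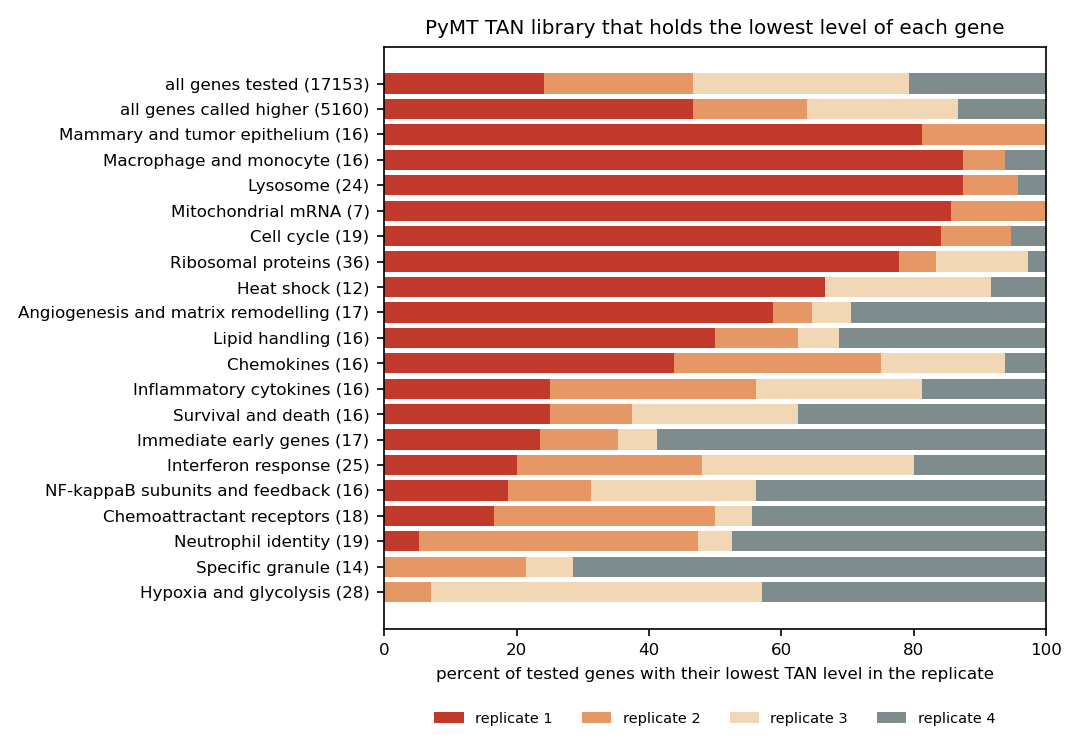
Percent of the tested genes of each list (number in brackets) whose lowest TAN level fell in replicate 1, 2, 3 or 4. Replicate 1 takes 14 of 16 macrophage genes and 21 of 24 lysosomal genes, against 3 of 16 NF-kappaB genes and none of the hypoxia and glycolysis genes.

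Most genes that define neutrophils were lower in TANs than in the marrow, and all 19 tested were still detected in each TAN library. Of 19 identity genes tested, 11 were lower and 6 were higher, beside 23.2% and 30.1% of all genes, with a median log2 fold change of -1.69. Several of them, Mmp9, Lcn2, Cxcr2, Itgam and Clec4e included, also count in the granule, receptor, adhesion or lectin lists below. The granulocyte colony-stimulating factor receptor Csf3r, on which neutrophil production depends, had 4707, 3958, 3512 and 3040.1 CPM in the TAN libraries and 4181, 3696, 3739.7 and 3658 CPM in the BM libraries. The groups overlapped and its log2 fold change was -0.01 ± 0.15 (adjusted p = 0.98). Cxcr2, the receptor for ELR+ CXC chemokines through which neutrophils are drawn out of the marrow, had 1513, 1071, 1182 and 1065 CPM in the TAN libraries and 2178, 2062, 1761 and 1855 CPM in the BM libraries (log2 fold change -0.70 ± 0.15, adjusted p = 0.0017), and on library totals it was not called (log2 fold change -0.26). Transcripts of Ly6g, which encodes the antigen used in the sort, fell further, with 47.7, 32.2, 43.2 and 20.7 CPM in the TAN libraries and 634, 458, 469 and 557 CPM in the BM libraries (log2 fold change -3.88 ± 0.26, adjusted p = 4.3e-07). The decoy receptor Il1r2, the lectin receptor Clec4e and the histamine-making enzyme Hdc rose, with log2 fold changes of 2.24, 2.19 and 1.96.

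The calprotectin genes S100a8 and S100a9 remained among the most abundant transcripts per length in TANs despite a large fall. S100a9 had 3587, 2229, 2552 and 2307 CPM in the TAN libraries and 40034, 29697, 27494 and 38654 CPM in the BM libraries (log2 fold change -3.67 ± 0.22, adjusted p = 2.1e-07, or -2.88 with GC content and length adjusted). Per kb of exon this was a mean of 65076 CPM in BM neutrophils and 5113 CPM in TANs. S100a8 went from 39359 to 5138 CPM per kb, which in TANs still exceeded the 4505 CPM per kb of Il1b, the most abundant of the higher genes on that scale. The resistin family gene Retnlg fell from 13684 to 1013 CPM per kb.

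Specific granule genes were the most uniformly lost program among the lists. Their list also holds genes that do not encode granule proteins, the enzyme gene Cyp4f18 and the leukotriene B4 receptor gene Ltb4r1. Of 14 genes, 13 were lower and none higher, with a median log2 fold change of -4.20, and their summed level was 4208, 3277, 3580.1 and 2956 CPM in TANs and 51944 to 77429.7 CPM in BM neutrophils. Cathelicidin (Camp, chromosome 9, 109847379 to 109849617 in GRCm38), an antimicrobial peptide precursor, had 36.4, 54.97, 45.6 and 16.7 CPM in the TAN libraries and 5708, 4194, 3579 and 5252 CPM in the BM libraries (log2 fold change -6.93 ± 0.39, adjusted p = 1.6e-07). Neutrophilic granule protein (Ngp) had 267, 269, 289 and 167 CPM in the TAN libraries and 19773, 13751, 12705 and 16840.1 CPM in the BM libraries (log2 fold change -5.99 ± 0.25, adjusted p = 2.9e-08). For the iron-binding protein lactoferrin (Ltf) the levels were 248, 369, 236 and 232 CPM in the TAN libraries and 18375, 13868, 11257 and 14096 CPM in the BM libraries (log2 fold change -5.73 ± 0.24, adjusted p = 3.0e-08). Every TAN library lay far below every BM library for these 3 genes. Chil3 (log2 fold change -6.02), Olfm4 (-4.60), the collagenase Mmp8 (-4.31), lipocalin Lcn2 (-4.16) and Cd177 (-4.15) fell likewise. The fatty acid hydroxylase Cyp4f18, which inactivates leukotriene B4, was the member not called, with 416 to 569.7 CPM in TANs and 558 to 662 CPM in BM neutrophils and a log2 fold change of -0.28 (adjusted p = 0.091).

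Most azurophil granule genes were low already in the marrow neutrophils, lysozyme (Lyz2) and Serpinb1a excepted, and 8 of 11 tested were lower in TANs and 1 higher. Lyz2 had 749, 1221, 2023 and 2434 CPM in the TAN libraries and 14624, 13216, 11152 and 13434 CPM in the BM libraries (log2 fold change -3.03 ± 0.32, adjusted p = 1.4e-05). Myeloperoxidase (Mpo) had 1.07, 0.862, 5.63 and 0.68 CPM in the TAN libraries and 34.3, 20.4, 38.4 and 27.98 CPM in the BM libraries (log2 fold change -3.92 ± 0.63, adjusted p = 2.8e-04), and neutrophil elastase (Elane) had 0.167, 1.02, 0 and 0 CPM in the TAN libraries and 15.3, 7.13, 16.7 and 12.4 CPM in the BM libraries (log2 fold change -5.43 ± 0.97, adjusted p = 5.8e-04). The highest TAN level was in replicate 3 for Mpo, the library with the highest erythroid marker sum, and in replicate 2 for Elane. Without those libraries the log2 fold changes were -5.13 for Mpo and -7.61 for Elane. The protease inhibitor Serpinb1a fell from 399 ± 38.4 to 15.7 ± 2.12 CPM (SD, n = 4 each, log2 fold change -4.67). Ctsc, which encodes the dipeptidyl peptidase that activates the granule serine proteases, was the exception and rose. It had 168, 291, 386 and 331 CPM in the TAN libraries and 8.56, 11.2, 9.63 and 10.3 CPM in the BM libraries (log2 fold change 4.89 ± 0.25, adjusted p = 9.9e-08), lowest in replicate 1 as were most lysosomal proteases.

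**Figure D3:**
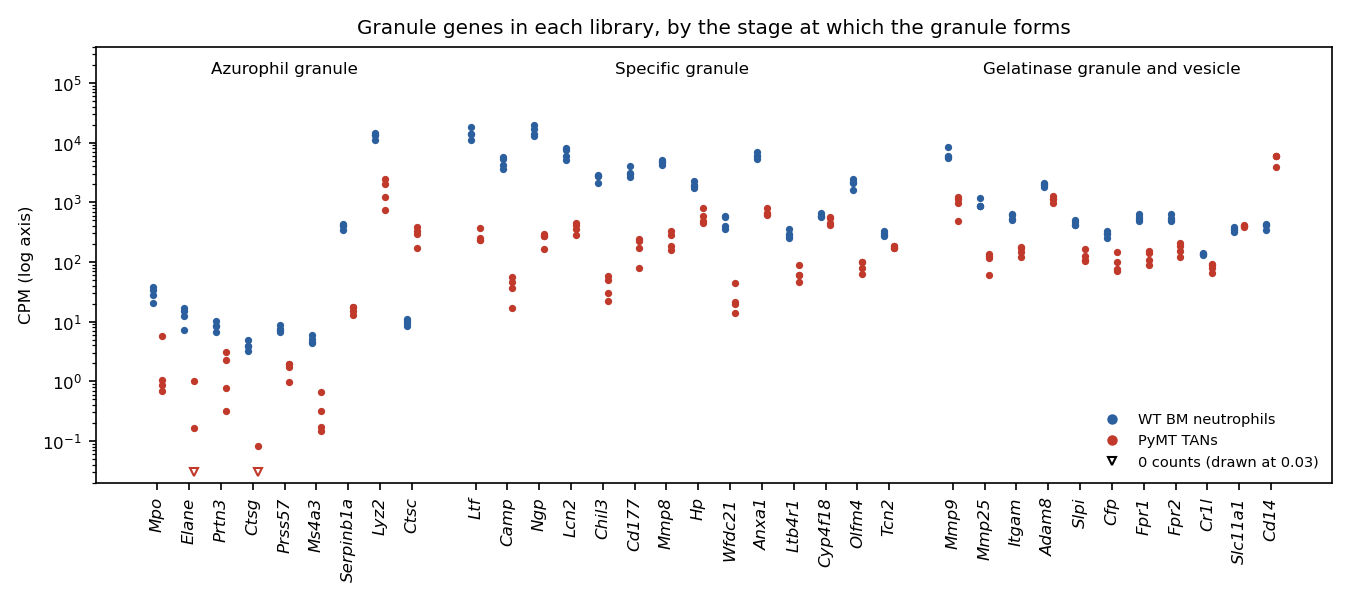
CPM (log axis) of azurophil, specific, and gelatinase granule and secretory vesicle genes in each TAN and BM library, with open triangles for libraries at 0 counts. BM points lie above TAN points for the 13 specific granule genes called lower, while Ctsc and Cd14 lie the other way.

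In the gelatinase granule and secretory vesicle list 11 of 15 genes tested fell and 3 rose, beside 23.2% and 30.1% of all genes. Gelatinase B (Mmp9) had 1213, 959, 1148 and 485 CPM in the TAN libraries and 8285, 5904, 5567 and 5810.4 CPM in the BM libraries (log2 fold change -2.75 ± 0.27, adjusted p = 8.2e-06). The membrane-anchored protease Mmp25 had a log2 fold change of -3.11 and the integrin subunit Itgam, the CD11b of the sort, of -1.89. Cd14, the lipopolysaccharide co-receptor kept in secretory vesicles, rose instead, from a mean of 232 to 3129 CPM per kb (log2 fold change 3.75 ± 0.18, adjusted p = 6.0e-08). It was second to Il1b in level per kb among the higher genes. The other higher members, Mme and Hpgd, stayed under 6 CPM in every library.

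Genes of the NADPH oxidase, the enzyme that makes superoxide in the respiratory burst, fell together: 8 of 10 were lower and none higher. The catalytic subunit gp91phox (Cybb) had 205, 353, 405 and 290.2 CPM in the TAN libraries and 2732, 2229.7, 1860.2 and 1996 CPM in the BM libraries (log2 fold change -2.82 ± 0.22, adjusted p = 1.3e-06). Its partner p22phox (Cyba) had a log2 fold change of -1.96, the cytosolic organizer p47phox (Ncf1) of -1.98, and the GTPase Rac2 of -1.83. The proton channel Hvcn1, which balances the charge the oxidase moves, fell with a log2 fold change of -2.44. For the 8 oxidase genes called lower and the 13 specific granule genes every TAN library lay below every BM library.

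Among transcription factors of granulopoiesis, 9 of 16 fell and 4 rose, beside 23.2% and 30.1% of all genes. The higher share was thus no larger than that of all genes. Cebpe, which drives specific granule genes at the myelocyte stage, had 2.68, 2.86, 2.78 and 1.7 CPM in the TAN libraries and 185, 139, 106 and 129.7 CPM in the BM libraries (log2 fold change -5.81 ± 0.24, adjusted p = 2.9e-08). Myb, a factor of immature progenitors, fell from 24.2 ± 0.807 to 0.724 ± 0.323 CPM (SD, n = 4 each, log2 fold change -5.03). Satb1 (-2.78), Klf5 (-2.64), Ets1 (-2.55), Cebpd (-1.72) and the myeloid master regulator Spi1 (-1.12) also fell on the log2 scale. Cebpb, the C/EBP factor of emergency granulopoiesis, rose, with 1316, 918, 999 and 472 CPM in the TAN libraries and 355, 296, 229.8 and 283 CPM in the BM libraries (log2 fold change 1.67 ± 0.27, adjusted p = 2.5e-04). Irf8, a factor of monocytes and dendritic cells, had 31.05, 74.04, 55.9 and 37.05 CPM in the TAN libraries and 4.09, 3.67, 3.38 and 2.54 CPM in the BM libraries (log2 fold change 3.86). Its lowest TAN level was in replicate 1, as for the macrophage markers.

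Cell cycle genes did not move as a group. Of 19 tested, 5 were higher, all of DNA replication (Mcm2, Mcm3, Mcm5, Mcm6 and Pcna), and 3 were lower, of mitosis (Mki67, Top2a and Birc5), shares no larger than those of all genes. Mki67 had 64.6, 70.5, 91.8 and 95.8 CPM in the TAN libraries and 164, 197, 174 and 181 CPM in the BM libraries (log2 fold change -1.15 ± 0.15, adjusted p = 5.1e-05). Without TAN replicates 3 and 4, which had the most epithelial transcripts, 11 cell cycle genes were lower and 3 higher, against 24.5% lower and 30.4% higher among the 18478 genes then tested. On library totals 6 were higher and 1 lower. The lower count was 1 without TAN replicate 2 or without BM replicate 2 and 7 without TAN replicate 3. Of the higher genes, Mcm5 was not called without BM replicate 3 (log2 fold change 0.71), and neither Mcm5 (0.49) nor Mcm6 (0.52) without TAN replicates 3 and 4.

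The largest falls among genes still at 1 CPM or more in every TAN library were, beside granule and marrow genes already named, those of the integrin subunit gene Itgb2l (-5.09), the peptidylarginine deiminase Padi4 (-5.06), which citrullinates histones in extracellular trap formation, Ccdc125 (-4.80), the surface antigen Ly6c2 (-4.77) and Adpgk (-4.72), all as log2 fold changes. Itgb2l overlaps the body of a gene on the opposite strand, and its value is uncertain. Padi4 had 30.3, 25.8, 16.3 and 7.86 CPM in the TAN libraries and 794, 681, 572 and 629 CPM in the BM libraries. Cytoskeletal genes were among the most abundant of the lower genes per kb, Actb with 8341 CPM per kb in BM neutrophils and 3100.4 in TANs, and Tmsb4x with 4167 and 1463.

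Chemoattractant receptors moved in both directions, with 9 of 18 higher and 6 lower, beside 30.1% and 23.2% of all genes. The formyl peptide receptors Fpr1 (-2.17) and Fpr2 (-1.69), the leukotriene B4 receptor Ltb4r1 (-2.19) and the sphingosine-1-phosphate receptor S1pr4 (-4.13) fell on the log2 scale. S1pr4 had 16.3, 13.7, 15.4 and 6.08 CPM in the TAN libraries and 279, 214, 194 and 214 CPM in the BM libraries. The chemerin-binding receptor Ccrl2 rose, with 3004, 2509, 2914 and 2815 CPM in the TAN libraries and 145, 218, 189.5 and 189.7 CPM in the BM libraries (log2 fold change 3.92 ± 0.16, adjusted p = 2.9e-08). Hcar2, a receptor for ketone bodies and niacin, had 854, 843, 853 and 786 CPM in TANs and 107, 194, 173 and 197 CPM in BM neutrophils (log2 fold change 2.31). Among the TAN libraries, both were highest in replicate 1. C3ar1 (5.64) and Ccr2 (3.87) also rose, and monocytes and macrophages express both. Cxcr4, the marrow retention receptor, had 608 to 795 CPM in TANs and 706 to 913 CPM in BM neutrophils and was not called.

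Adhesion genes were higher in 9 of 16 cases and lower in 4, the lower share near the 23.2% of all genes. The beta2 integrin Itgb2 fell with a log2 fold change of -1.83. The intercellular adhesion molecule Icam1 had 236, 226, 317 and 270.3 CPM in the TAN libraries and 4.96, 4.96, 3.93 and 4.94 CPM in the BM libraries (log2 fold change 5.80 ± 0.17, adjusted p = 8.4e-09). The fibronectin receptor subunit Itga5 had 130.2, 155, 126 and 133 CPM in the TAN libraries and 6.55, 6.15, 5.18 and 4.15 CPM in the BM libraries (log2 fold change 4.63 ± 0.17, adjusted p = 2.0e-08), and its partner Itgb1 rose with a log2 fold change of 2.20. The TAN libraries lay close together for both genes, far above all BM libraries.

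Inflammatory cytokines were gained: 11 of 16 tested were higher and 2 lower, and the list summed to 10336 to 12574 CPM in TANs and 1897 to 2146 CPM in BM neutrophils. Most of that sum was interleukin 1 beta. Il1b (chromosome 2, 129364570 to 129371139) had 8323, 7603, 9929 and 8508 CPM in the TAN libraries and 689.9, 822, 833 and 721 CPM in the BM libraries (log2 fold change 3.49 ± 0.15, adjusted p = 3.1e-08), and it shares exon sequence with an opposite-strand gene. Interleukin 1 alpha (Il1a) had 80.4, 95.1, 142 and 111 CPM in the TAN libraries and 0.493, 0.358, 0.775 and 0.459 CPM in the BM libraries (log2 fold change 7.67 ± 0.28, adjusted p = 2.0e-08). The antagonist Il1rn rose less, with a log2 fold change of 1.09, so agonist and antagonist of this receptor rose by different amounts. Csf1, the growth factor of macrophages, had 861, 1039, 665 and 492 CPM in the TAN libraries and 56.4, 91.3, 61.1 and 51.2 CPM in the BM libraries (log2 fold change 3.56 ± 0.27). Tumor necrosis factor (Tnf) had 123 to 236 CPM in TANs and 38.2 to 50.6 CPM in BM neutrophils (log2 fold change 1.81), and the anti-inflammatory Il10 had 32.95, 40.4, 11.96 and 38.5 CPM in TANs and 0, 0, 0 and 0.297 CPM in BM neutrophils. Tnfsf13b, the B cell survival factor BAFF, fell (-2.18). Il6 and Csf2 stayed under 2 CPM in every library.

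Chemokines rose in 14 of 16 cases and 1 fell, with a median log2 fold change of 4.22. Placing Ccl7 and Ccl8 at the bound that 3 counts per BM library allow could not move this median, because both bounds lie above it. The neutrophil attractants Cxcl1, Cxcl2 and Cxcl3, ligands of Cxcr2, were all gained. Cxcl2 was by far the most abundant, with 3765, 2405, 3271 and 3309.9 CPM in the TAN libraries and 105, 214, 200.3 and 206 CPM in the BM libraries (log2 fold change 4.14 ± 0.25, adjusted p = 2.6e-07). Cxcl1 had 41.6, 25.2, 48.3 and 75.2 CPM in the TAN libraries and 0.174, 0.896, 0.72 and 0.27 CPM in the BM libraries (log2 fold change 6.53) and Cxcl3 had 151, 57.6, 48.3 and 74.01 CPM in the TAN libraries and 1.62, 4.42, 2.38 and 2.83 CPM in the BM libraries (log2 fold change 4.88). Ccl3 (3.41) and Ccl4 (4.31), attractants of several kinds of leukocyte, and the scavenger receptor ligand Cxcl16 (7.49) also rose. Ccl8, a monocyte attractant, had 0.335, 1.91, 59.6 and 44.8 CPM in TANs, and Ccl7 had 1.86, 2.51, 17.2 and 11.1 CPM. Neither had a count in BM neutrophils. Their TAN means were at least 298-fold and 91.2-fold above a floor of 3 counts per BM library. That floor was at most 0.0896 CPM, and the bound for Ccl8 holds for the mean, not for replicates 1 and 2. Ccl8 and Ccl7 were highest in replicates 3 and 4, the libraries with the most epithelial transcripts, while Cxcl2 was highest in replicate 1. Ccl6, expressed by resting neutrophils, fell from 910.1 ± 72.2 to 220.4 ± 80.02 CPM (SD, n = 4 each, log2 fold change -2.05).

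**Figure D4:**
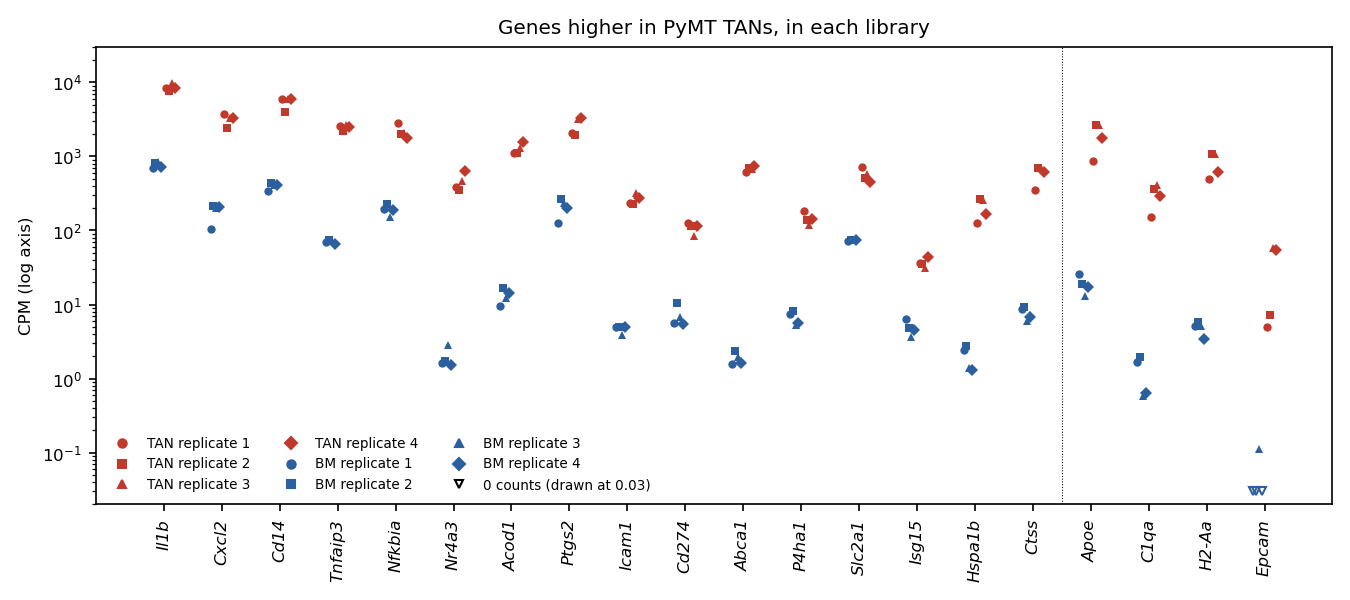
CPM (log axis) of gained genes in each TAN and BM library, with open triangles for libraries at 0 counts. TAN points lie above BM points for each gene plotted, and the TAN libraries lie closest together for genes such as Tnfaip3, at 2227 to 2679 CPM in TANs and 66.4 to 74.1 CPM in BM neutrophils.

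Most genes of the NF-kappaB subunit and feedback list rose: 13 of 16 were higher and none lower. The list summed to 11244, 9538, 9994 and 10339.6 CPM in TANs and 1827 to 2144 CPM in BM neutrophils. Tnfaip3, the A20 ubiquitin editor that shuts the pathway down and is itself induced by it, had 2612, 2227, 2679 and 2488 CPM in the TAN libraries and 69.2, 74.1, 72.7 and 66.4 CPM in the BM libraries (log2 fold change 5.15 ± 0.14, adjusted p = 4.3e-09). Nfkbia, the inhibitor IkappaB alpha, had 2860.1, 2009, 2064 and 1773 CPM in the TAN libraries and 196, 226, 152 and 187 CPM in the BM libraries (log2 fold change 3.52 ± 0.19, adjusted p = 1.3e-07). The adaptor Traf1 (5.71), the noncanonical subunits Nfkb2 (2.44) and Relb (2.18), Rel (2.08) and the kinase Map3k8 (2.33) rose on the log2 scale. The subunits Nfkb1 and Rela were not called. Counts were 13 higher and none lower without TAN replicates 3 and 4 too, while on library totals all 16 were higher, Nfkb1 (0.66) and Rela (0.83) included.

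The promoters of these genes are shown because the list was gained in all 4 TAN libraries. The letters GGGNN followed by TTTCC (N for any base), a common form of the kappaB site, were sought on both strands in the 250 bases before each gene's RefSeq start (GRCm38.p6, C57BL/6 reference sequence, while the mice were FVB). They occurred in 1.4% of the 27025 gene promoters, in 4 of 12 of the NF-kappaB list with an entry (Nfkb2, Rel, Nfkbia and Tnfaip3), in 4 of 12 chemokine genes (Cxcl1, Cxcl2, Cxcl3 and Ccl9) and in 2 of 13 cytokine genes. They were also in 2 of 15 survival genes and 2 of 16 chemoattractant receptor genes, while several other lists had no match. Olfm4 and Birc5, both lower in TANs, held a match too. Over all higher genes the share was 1.53% and over all lower genes 1.31%, near the share of all promoters. Cxcl1 and Cxcl2 each held a pair of matches less than 20 bases apart, and Tnfaip3 and Nfkbia held theirs within 30 bases of the start. The 120 bases around them are given 5′ to 3′ on the gene's strand, with matches in capitals.
Tnfaip3 (chr10:19015411-19015530, minus strand): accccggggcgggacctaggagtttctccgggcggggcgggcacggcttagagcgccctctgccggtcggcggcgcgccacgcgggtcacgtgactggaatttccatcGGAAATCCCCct
Nfkbia (chr12:55492648-55492767, minus strand): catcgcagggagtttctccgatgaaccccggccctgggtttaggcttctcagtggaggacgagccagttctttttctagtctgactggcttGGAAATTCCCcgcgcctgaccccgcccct
Cxcl1 (chr5:90891125-90891244, plus strand): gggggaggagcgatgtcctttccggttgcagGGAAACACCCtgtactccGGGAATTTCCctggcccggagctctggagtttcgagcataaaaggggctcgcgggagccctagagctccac
Cxcl2 (chr5:90903779-90903898, plus strand): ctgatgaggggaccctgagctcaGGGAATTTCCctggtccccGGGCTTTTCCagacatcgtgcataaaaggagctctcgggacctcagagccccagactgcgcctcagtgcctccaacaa
Cxcl3 (chr5:90785981-90786100, plus strand): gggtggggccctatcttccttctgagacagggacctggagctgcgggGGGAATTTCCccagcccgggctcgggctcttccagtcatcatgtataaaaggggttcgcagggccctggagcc

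Immediate early genes, transcribed within minutes of a stimulus, were higher in 12 of 17 cases and lower in 1. The orphan nuclear receptor Nr4a3 (chromosome 4, 48045153 to 48086447) had 388, 351, 462 and 629 CPM in the TAN libraries and 1.62, 1.73, 2.85 and 1.51 CPM in the BM libraries (log2 fold change 7.89 ± 0.30, adjusted p = 2.0e-08), the second largest rise among genes with at least 1 CPM in every BM library. Nr4a1 (3.91), Maff (4.48), Atf3 (3.93), Fosb (3.52) and Egr1 (2.77) rose on the log2 scale. Fos was abundant in both groups, with 1220.4, 1435, 1815 and 1308 CPM in the TAN libraries and 1129.7, 1357, 1192 and 1103 CPM in the BM libraries, and was not called (log2 fold change 0.27, adjusted p = 0.14). Ier2 fell (-0.69), less than 1.5-fold without TAN replicate 4 (-0.55). Such genes are also known to respond to enzymatic dissociation, which only the tumor samples underwent, and that cannot be told apart from the tissue here.

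Of 25 interferon response genes 18 were higher and 2 lower, with a median log2 fold change of 2.08, and without TAN replicates 3 and 4 the counts were 20 and 2. Isg15, a ubiquitin-like modifier, had 36.5, 34.9, 31.4 and 44.2 CPM in the TAN libraries and 6.29, 4.78, 3.6 and 4.51 CPM in the BM libraries (log2 fold change 2.94 ± 0.21, adjusted p = 7.1e-07). The antiviral radical SAM enzyme Rsad2 (viperin) had 69.5, 87.4, 61.5 and 79.8 CPM in the TAN libraries and 10.1, 11.9, 7.92 and 7.85 CPM in the BM libraries (log2 fold change 2.98), and the guanylate-binding protein Gbp2 had a log2 fold change of 2.73. These levels were low beside those of Il1b or Cxcl2. The nucleotide kinase Cmpk2, a neighbor of Rsad2 in the genome, fell (-1.24).

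The letters GAAANN followed by GAAA of the interferon-stimulated response element were found, by the same search, in 3.04% of all gene promoters and in 9 of 19 interferon genes with an entry. The share was 3.37% over all higher genes and 2.43% over all lower genes, and the letters were also in 2 of 4 NADPH oxidase genes with an entry, Cybb and Ncf1, both lower in TANs. Those 9 interferon genes included Stat2 and Oas3, which were not called. Isg15 held 3 overlapping matches and Ifit1, whose log2 fold change was 2.11, held 2. Their 120-base stretches are given in the same way.
Isg15 (chr4:156200819-156200938, minus strand): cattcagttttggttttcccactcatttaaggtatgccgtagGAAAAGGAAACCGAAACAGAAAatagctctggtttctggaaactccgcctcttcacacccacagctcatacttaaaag
Ifit1 (chr19:34640769-34640888, plus strand): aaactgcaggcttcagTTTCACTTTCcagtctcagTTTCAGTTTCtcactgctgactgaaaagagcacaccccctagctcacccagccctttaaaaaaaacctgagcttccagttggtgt

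Immunoregulatory genes were split, 9 of 18 higher and 6 lower, beside 30.1% and 23.2% of all genes. Acod1, which makes itaconate from a Krebs cycle intermediate, had 1094, 1119.8, 1304 and 1589 CPM in the TAN libraries and 9.66, 16.7, 12.2 and 14.4 CPM in the BM libraries (log2 fold change 6.59 ± 0.23, adjusted p = 1.5e-08). Ptgs2, the cyclooxygenase that starts prostaglandin synthesis, had 2066, 1923, 3160.2 and 3272 CPM in the TAN libraries and 127, 269.5, 235 and 198 CPM in the BM libraries (log2 fold change 3.65 ± 0.27, adjusted p = 1.0e-06), whereas Ptges, a synthase of prostaglandin E2, fell (-2.51). Cd274, the checkpoint ligand PD-L1, had 128, 114, 83.2 and 116 CPM in the TAN libraries and 5.57, 10.4, 6.78 and 5.45 CPM in the BM libraries (log2 fold change 3.97 ± 0.24, adjusted p = 2.4e-07). Arginase 1 (Arg1) and inducible nitric oxide synthase (Nos2) rose from under 1 CPM but stayed low and uneven, Arg1 with 8.27, 12.9, 10.7 and 31.8 CPM and Nos2 with 81.4, 21.7, 10.1 and 18.2 CPM in the TAN libraries. The checkpoint receptor Vsir (VISTA) fell, from 1708 ± 228 to 551 ± 134 CPM (SD, n = 4 each, log2 fold change -1.63), and so did the galectin Lgals3 (-2.08).

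Of 28 hypoxia genes and glycolytic enzymes, held in 1 list, 16 were higher and 7 lower. The lower share was near the 23.2% of all genes. Among the higher was Hilpda, which blocks lipid droplet breakdown, with 153, 94.5, 29.1 and 87.97 CPM in the TAN libraries and 0.928, 1.16, 1.02 and 1.13 CPM in the BM libraries (log2 fold change 6.42 ± 0.47, adjusted p = 9.2e-07). The collagen prolyl hydroxylase P4ha1 had 185, 138, 118 and 143 CPM in the TAN libraries and 7.37, 8.15, 5.31 and 5.64 CPM in the BM libraries (log2 fold change 4.47), and the glucose transporter Slc2a1 (GLUT1) had 729, 511, 579 and 458 CPM in the TAN libraries and 71.4, 74.5, 75.3 and 75.1 CPM in the BM libraries (log2 fold change 2.94 ± 0.16, adjusted p = 1.1e-07). Vegfa (1.67), Pdk1 (3.82) and Hif1a itself (1.80) rose, as did the glycolytic enzymes Pfkl (2.53), Pfkp (2.32) and Tpi1 (1.74). The 7 lower genes included the glucose transporter Slc2a3 (GLUT3), with 654, 610.4, 628 and 608 CPM in the TAN libraries and 2096, 2180.3, 2005 and 1859 CPM in the BM libraries (log2 fold change -1.70 ± 0.11), and the glycolytic enzymes Gpi1 (-1.82), Hk1 (-0.74) and Gapdh (-0.70). All but 2 of the 28 genes were highest in TAN replicate 1, so higher and lower genes shared that order among TANs. Without TAN replicates 3 and 4 the counts were 15 higher and 3 lower, and Gapdh (-0.55) and Hk1 (-0.52) were no longer called. On library totals 18 were higher and 2 lower, and the same pair was not called.

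Stress programs differed in extent. Heat shock genes were higher in 9 of 12 cases and none was lower, among them the inducible Hsp70 gene Hspa1b with 126, 268, 261 and 169 CPM in the TAN libraries and 2.47, 2.75, 1.38 and 1.32 CPM in the BM libraries (log2 fold change 6.70 ± 0.36, adjusted p = 1.1e-07). Hspa1a, its near-identical neighbor, shares reads with it, so the split between them is uncertain. In the unfolded protein and integrated stress response list 8 of 16 were higher and none lower. Ppp1r15a (GADD34), a phosphatase subunit that restores translation, had 619, 556, 725 and 506 CPM in the TAN libraries and 13.9, 27.97, 19.98 and 18.2 CPM in the BM libraries (log2 fold change 4.91), and the chaperone Hspa5 rose too (1.85). Atf4 had 109 to 166 CPM in TANs and 181 to 197 CPM in BM neutrophils and Ddit3 (CHOP) 9.98 to 28.4 CPM in TANs and 25.03 to 30.96 CPM in BM neutrophils, and neither was called, although Atf4 was lower without TAN replicate 1 (log2 fold change -0.59) and with GC content and length adjusted (also -0.59). Of 17 genes of heme, iron and the Nrf2 response tested, 10 rose and 3 fell. The lower share was no larger than the 23.2% of all genes. The thioredoxin reductase Txnrd1 (2.75), the cystine transporter Slc7a11 (1.63) and Srxn1 (3.52) were among those that rose, and the iron exporter Slc40a1 (-0.99) fell.

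Survival genes rose in 10 of 16 cases and 4 fell, the lower share near the 23.2% of all genes. Mcl1, on which neutrophil survival depends, had 3486, 2758, 2941 and 2535 CPM in the TAN libraries and 1474, 1672, 1377 and 1308 CPM in the BM libraries (log2 fold change 1.01 ± 0.14, adjusted p = 1.0e-04). Bcl2l1 (BCL-XL) had 292, 186, 198 and 212 CPM in the TAN libraries and 54.1, 44.3, 37.1 and 44.3 CPM in the BM libraries (log2 fold change 2.30). The proapoptotic Bcl2l11 (BIM) rose as well (2.32), while proapoptotic Bid (-1.79) and Bad (-1.34) fell. The Bcl2a1 paralogs are near-identical in sequence and their counts of up to 12.1 CPM are uncertain. The cell cycle inhibitor Cdkn1a (p21) had 434, 306, 319.5 and 303 CPM in the TAN libraries and 1.22, 2.99, 2.91 and 2.72 CPM in the BM libraries (log2 fold change 7.11 ± 0.29, adjusted p = 2.9e-08) and shares exon sequence with an opposite-strand gene.

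Sensing receptors moved in both directions, 6 of 18 Toll-like receptor genes higher and 7 lower, and 6 of 19 Fc and lectin receptor genes higher and 8 lower, where the higher shares were close to that of all genes. Tlr2 rose (1.35), Tlr5, the flagellin receptor, fell (-2.65), and Tlr4 had 161 to 222 CPM in TANs and 119.5 to 157 CPM in BM neutrophils and was not called. The fungal sensor Clec4n (dectin 2) had 213, 184, 279.7 and 234 CPM in the TAN libraries and 11.9, 14.9, 11.5 and 13.1 CPM in the BM libraries (log2 fold change 4.15 ± 0.17, adjusted p = 2.7e-08). Siglecf, a sialic acid receptor described on some tumor neutrophils and on eosinophils, had 172, 129, 145 and 101 CPM in the TAN libraries and 18.1, 14.2, 15.8 and 17.2 CPM in the BM libraries (log2 fold change 3.07 ± 0.18, adjusted p = 1.8e-07). The eosinophil genes Epx and Prg2 were at or below 0.126 CPM in every TAN library. The inhibitory lectin Clec12a fell, from 272 ± 15.2 to 31.1 ± 2.71 CPM (SD, n = 4 each, log2 fold change -3.13). Of 12 genes of antigen presentation by MHC class I, 5 were higher and 2 lower, beside 30.1% and 23.2% of all genes. H2-K1 had a log2 fold change of 1.48 and the immunoproteasome subunit Psmb9 one of -1.32.

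**Figure D5:**
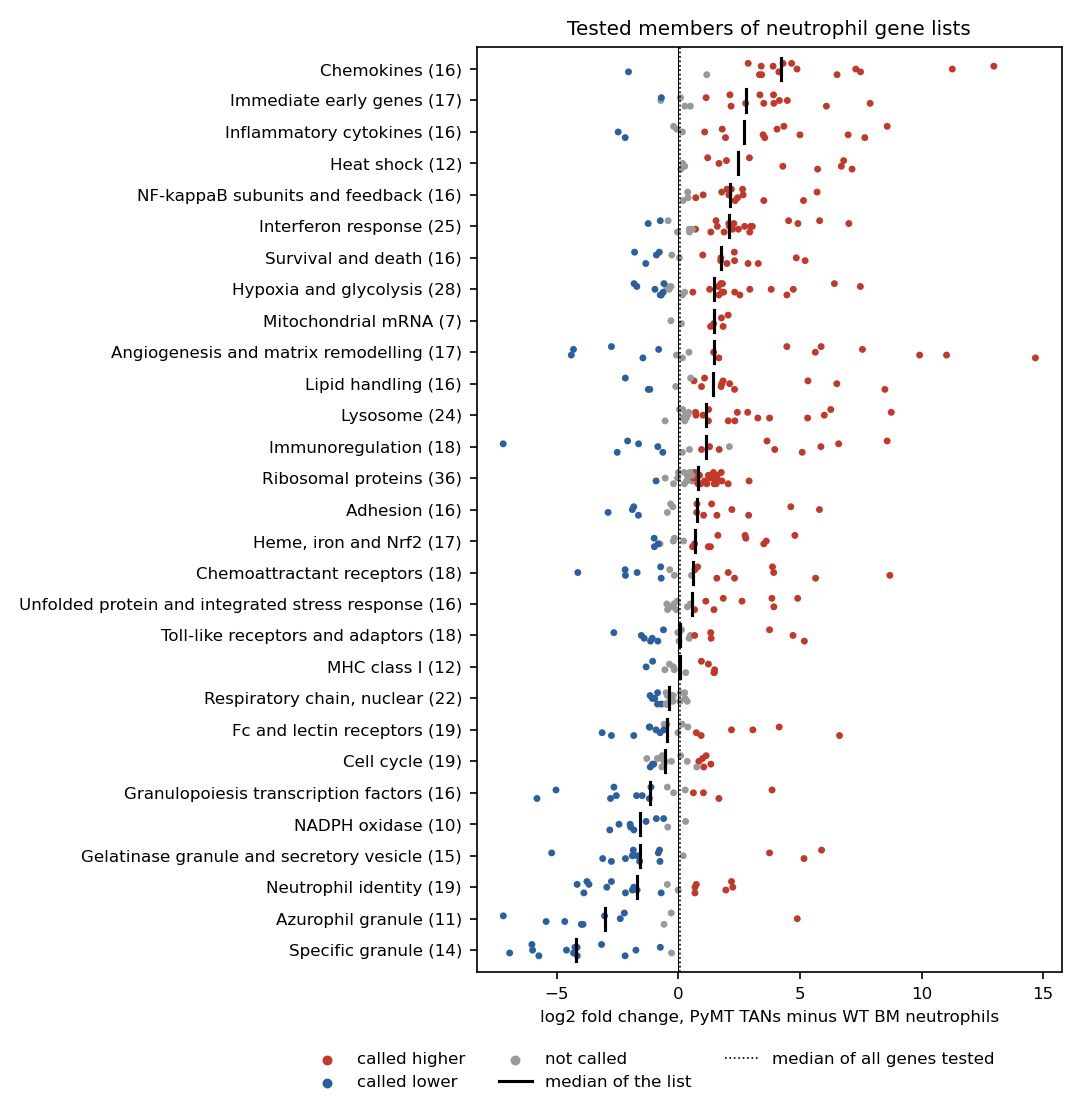
Log2 fold change, TAN over BM, of each tested member of the neutrophil lists (1 point per gene, called genes in color), with the median of each list as a black bar and that of all genes tested (0.09) as a dotted line. Points of genes without counts in the BM libraries, such as Mmp12, depend on a small prior count. The specific granule median lies at -4.20 and the chemokine median at 4.22.

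Several gained programs were lowest in TAN replicate 1, as the macrophage markers were. Lysosomal genes were higher in 15 of 24 cases and none was lower. Cathepsin S (Ctss) had 352, 699, 697 and 618 CPM in the TAN libraries and 8.82, 9.19, 5.92 and 6.74 CPM in the BM libraries (log2 fold change 6.27 ± 0.28, adjusted p = 4.5e-08), cathepsin B (Ctsb) had 1078, 1753, 1844 and 1854 CPM in the TAN libraries and 197, 169, 151 and 160.0 CPM in the BM libraries (log2 fold change 3.27), and Gpnmb, a glycoprotein of lipid-laden macrophages, had 8.33, 9.24, 14.6 and 219 CPM in TANs. Gpnmb thus ranged more widely among the 4 TAN libraries than Ctss or Ctsb. Of 16 lipid handling genes 11 rose and 3 fell, and on leaving out TAN replicates 3 and 4 the count was 9 and 3. With all libraries the lower share was no larger than the 23.2% of all genes. Abca1 (chromosome 4, 53030787 to 53159895), which exports cholesterol, had 613, 693, 672 and 742 CPM in the TAN libraries and 1.57, 2.39, 1.94 and 1.65 CPM in the BM libraries (log2 fold change 8.49 ± 0.19, adjusted p = 1.4e-09), the largest rise among genes with at least 1 CPM in every BM library. Unlike the scavenger receptor Cd36, with 5.84, 13.3, 26.1 and 68.4 CPM in TANs, it was nearly level across the TAN libraries. The acyl-CoA synthetase Acsl1 fell (-2.18).

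Of 17 angiogenesis and matrix genes, 9 rose and 5 fell, the lower share near the 23.2% of all genes. Macrophage elastase (Mmp12) had 39.3, 72.99, 87.6 and 148 CPM in TANs and no count in BM neutrophils, its TAN mean at least 971-fold above the floor of 3 counts. Osteopontin (Spp1) had 127, 133, 398 and 1118 CPM in the TAN libraries and 5.74, 10.8, 7.53 and 6.21 CPM in the BM libraries (log2 fold change 5.87, 4.83 without replicate 4). Thrombospondin 1 (Thbs1), an inhibitor of vessel growth, fell, with 52.03, 105, 207 and 125 CPM in the TAN libraries and 1801, 3228, 2573 and 2695 CPM in the BM libraries (log2 fold change -4.40 ± 0.39, adjusted p = 3.2e-06), or -5.07 without TAN replicates 3 and 4. Ribosomal protein genes were higher in 22 of 36 cases and lower in 1, with a median log2 fold change of 0.80. The mRNAs of the mitochondrial genome were higher in 5 of 7 cases, but in 3 with 1 lower once TAN replicates 3 and 4 were left out, and mt-Co1 had 384, 619, 1334 and 1852 CPM in the TAN libraries and 326, 284, 242 and 316 CPM in the BM libraries. Nuclear genes of the respiratory chain differed from these in having none of 22 higher, beside 30.1% of all genes. Of the 22, 6 were lower, a share near the 23.2% of all genes. Their median log2 fold change was -0.39, and on library totals the direction turned (median 0.06, 3 higher and 2 lower).

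Among the largest rises in genes with at least 1 CPM in every BM library, and on no list of other cells, were also, with their log2 fold changes, Rasgef1b (6.13), the receptor kinase Axl (6.12), which binds apoptotic cells through Gas6, the magnesium transporter Slc41a1 (6.05) and Rgs1 (5.99), a brake on chemokine receptor signaling. Axl had 133, 329.9, 253 and 144 CPM in the TAN libraries and 2.99, 4.75, 2.85 and 1.83 CPM in the BM libraries, and Rgs1 had 515, 449, 631 and 490.3 CPM in the TAN libraries and 4.21, 8.81, 10.2 and 9.58 CPM in the BM libraries. The lowest TAN level was in replicate 1 for Axl and in replicate 2 for Rgs1. The most abundant higher genes per kb beside those already described were Srgn, the proteoglycan of granules, with 903 CPM per kb in TANs and 256 in BM neutrophils, and the interferon-induced membrane protein gene Ifitm1, with 872 and 161 CPM per kb. Junb, with 1443 and 321 CPM per kb, and the phosphatase gene Dusp1, with 894 and 489, were also among these, and exons of both overlap a gene on the opposite strand, so their reads may not be theirs alone.

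Leaving out TAN replicates 3 and 4 together, the libraries with the most epithelial transcripts, left 5621 higher and 4532 lower genes of 18478 tested. The specific granule (13 lower), NADPH oxidase (8 lower), cytokine (11 higher, 2 lower) and chemokine (14 higher, 2 lower) counts then stood close to those with all libraries. Macrophage markers still counted 15 higher, with 1 lower. Epithelial markers counted 15 higher with 1 lower, but those without a BM count could only be called higher. In replicates 1 and 2 the macrophage sums were 2360.4 and 5411 CPM, against 243 to 344 CPM in BM neutrophils. The epithelial sums there were 65.4 and 99.6 CPM, against 448 and 670.3 CPM in replicates 3 and 4 and 11.5 to 13.2 CPM in BM neutrophils. By these levels neither marker set was confined to replicates 3 and 4, though epithelial sums were highest in them.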

How the data were processed

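RNA of sorted neutrophils was depleted of ribosomal RNA, made into directional libraries and sequenced. The authors aligned reads to mm10 with STAR and counted them on genes with HTSeq, and the deposited values are raw counts for 55335 genes per library. Annotation release and strand setting were not given in the sources used here. Rows that name no gene were left out of library sizes. Reads on no feature made up 39.9 to 52.5% of reads in TANs and 32.0 to 42.4% in BM neutrophils.

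Groups came from the labelled genotype and source. Genes passing filterByExpr in the 4 TAN and 4 BM libraries were fitted with edgeR 4.0.16 (TMM, robust quasi-likelihood F-test, R 4.3.3), with Benjamini-Hochberg adjustment over all genes tested. DESeq2 1.42.0 was an alternative, beside other scalings, filters, a replicate block, GC and length offsets, 12 libraries in 1 fit and each library left out. Leaving out TAN replicates 3 and 4 together was chosen after seeing the data. Scripts were tested on simulated data. Exon lengths and overlaps came from GENCODE M21, which matched 55154 genes, and promoters from RefSeq GRCm38.p6.

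Members of 29 neutrophil and 12 other-cell lists were named, with the 10 largest rises and falls among protein-coding genes on no other-cell list whose groups did not overlap and that had at least 1 CPM in every library of the lower group, and the 10 most abundant higher and lower genes per kb. The lists overlap, so the same genes enter the counts of several lists. Ccr2 and Fcgr1 are in a neutrophil list and also among the macrophage markers. The lists and rules were chosen with earlier results of these data known, so no test was made on any list. Some members enter the counts and medians of their lists but are not reported here by name. Intervals of 3 counts, used as floors, cover counting error only.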

Additional observations from a re-analysis of the deposited data

Results flagged for a closer look

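In 44 of 449 groups of 4 values examined, the highest or lowest library stood apart from the other 3 by Dixon's ratio, where chance flags about 1 in 20. Each is given in CPM with the range of the other 3 libraries of its group, and no cause was tested.

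TAN replicate 1 stood low for summed lysosomal genes (6300.0, others 9353 to 9552), Ctsb (1078, others 1753 to 1854) and summed heat shock genes (1151, others 1687 to 1796). It stood high for Nos2 (81.4, others 10.1 to 21.7), Ifitm1 (1248, others 831 to 888), Cdkn1a (434, others 303 to 320) and summed survival genes (5367, others 4262 to 4386). It alone had a trace of the eosinophil genes Epx (0.0837) and Prg2 (0.126).

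TAN replicate 2 was low for Cd14 (3919, others 5873 to 6000.4), summed Toll-like receptor genes (6059, others 8243 to 8675) and Ifit1 (16.4, others 24.1 to 24.996). The same library was high for Ccl3 (230, others 171 to 179), Ltf (369, others 232 to 248), Elane (1.02, others 0 to 0.167) and Cd3e (2.72, others 0 to 0.126).

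TAN replicate 3 was high for summed erythroid markers (162, others 6.05 to 9.97), Mpo (5.63, others 0.680 to 1.07) and Tnf (236, others 123 to 141). TAN replicate 4 was high for Gpnmb (219, others 8.33 to 14.6) and Nfkb1 (434, others 207 to 242), and low for Cebpe (1.70, others 2.68 to 2.86), Ly6c2 (15.45, others 28.5 to 30.9) and Hcar2 (786, others 843 to 854).

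BM replicate 1 was high for Mmp9 (8285, others 5567 to 5904), Mmp25 (1182, others 852 to 879), Vsir (2047, others 1552 to 1635), Csf3r (4181, others 3658 to 3739.65), Ptges (16.04, others 11.5 to 12.1), and the summed lysosomal (4659, others 3729 to 3873), endothelial (13.5, others 6.69 to 7.81) and adipocyte genes (81.3, others 64.9 to 66.9). It was low for Cxcl2 (105, others 200.3 to 214) and Cdkn1a (1.22, others 2.72 to 2.99). BM replicate 2 was high for Hdc (883, others 665 to 687), Tlr2 (418, others 276 to 288) and Hif1a (137, others 81.0 to 90.2), and low for Pfkp (64.2, others 70.3 to 71.0). BM replicate 3 was high for Nr4a3 (2.85, others 1.51 to 1.73) and low for Icam1 (3.93, others 4.94 to 4.96) and Chil3 (2115, others 2724 to 2818). BM replicate 4 was high for Il10 (0.297, others 0) and Hpgd (0.162, others 0.0554 to 0.0597), and low for summed dendritic cell and MHC class II genes (18.4, others 26.9 to 27.8).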

How the results depend on the processing

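Over the alternatives, the count of higher genes stayed between 4444 (replicate block with GC content and length adjusted) and 6674 (library totals). The count of lower genes fell to 2488 on library totals, the sole setting in which either count moved by over 1.5 times, and otherwise lay between 2922 (fold of 2) and 4734 (DESeq2). Leaving out each library in turn gave 4877 to 5848 higher and 3786 to 4407 lower genes.

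Same-numbered libraries of the groups did not deviate together (correlations of -0.09, -0.02, -0.12 and 0.07), so the numbers were not taken to pair samples, and the fit with the replicate block gave 4567 higher and 3903 lower genes.

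Among lists with 3 or more lower members, library totals moved that count by over 1.5 times for hypoxia and glycolysis (7 to 2), respiratory chain (6 to 2), Fc and lectin receptors (8 to 5), survival and death (4 to 2), heme, iron and Nrf2 (3 to 0) and cell cycle (3 to 1).

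Of 182 genes named with a test, 161 kept direction and call in every alternative run and 11 lost the call in at least 1, mostly on library totals or at a fold of 2. Ccl8 lost it without the low count filter (adjusted p = 0.11, DESeq2 and the other edgeR fits keeping it), Top2a, Birc5, Mcm5 and Ier2 when 1 library was left out. Mcm5 (0.67, adjusted p = 0.051) and Mcm6 (0.77, adjusted p = 0.053) lost it in the edgeR fit with the replicate block and GC content and length adjusted. No called gene changed sign. Among genes not called, Csf3r was 0.43 on library totals, 0.08 with upper quartile factors, 0.06 with a CPM filter, between -0.14 and 0.08 with each library left out in turn, and 0.16 without TAN replicates 3 and 4. Cxcr4 was 0.29 on library totals and 0.01 with GC content and length adjusted, and Cyp4f18 was 0.17 on library totals. Nfkb1 was -0.21 with GC content and length adjusted, -0.28 with the replicate block in that fit, -0.11 without TAN replicate 4 and -0.12 without replicates 3 and 4. Calls were gained on library totals by Fos (0.71), Nfkb1 (0.66), Oas3 (1.03), Rela (0.83), Stat2 (0.91) and Tlr4 (0.94), by Tlr4 with upper quartile factors (0.59), by Oas3 without TAN replicate 2 (0.73), by Stat2 without TAN replicates 3 and 4 (0.63), and by Atf4 without TAN replicate 1 (-0.59), with GC content and length adjusted (-0.59) and with the replicate block in that fit (-0.61).

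With GC content and length adjusted, some called log2 fold changes kept their call and moved by over 1.5-fold: S100a9 to -2.88, S100a8 to -2.19, Retnlg to -2.96, Camp to -6.33, Ly6g to -3.29, Ccl3 to 4.08, Ccl4 to 5.08 and Isg15 to 3.56. Without TAN replicates 3 and 4, Lyz2 moved to -3.76, Ptges to -3.13, Ccr2 to 3.03 and mt-Co1 to 0.75. The log2 ratio of summed megakaryocyte markers turned from -0.16 to 0.31 on library totals. Causes were not tested beyond the construction of each alternative. Levels under about 0.1 CPM rest on 3 counts or fewer, so absence of a transcript cannot be told from its level at this depth.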
